A study of Mus musculus with 25 samples.

Results

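The genes described here are the cytokines, the chemokines and their receptors: every gene of the array annotation whose symbol begins with Il, Ccl, Cxcl, Ccr, Cxcr, Ackr or Csf and a digit, with Tnf, with Ifn, or with Tgfb and a digit or r. The rule found 126 genes, on 129 spots, of the 8726 genes with a symbol. They comprised 22 interleukins, 25 interleukin receptor chains, 14 CC and 10 CXC chemokines, 12 chemokine receptors, 7 TNF family ligands, 11 TNF receptor family members, 6 genes named for induction by TNF, 3 TGF-beta ligands and 3 TGF-beta receptors, 4 interferons and 3 interferon receptor chains, 1 colony-stimulating factor, 4 colony-stimulating factor receptor chains and Il4i1, an amino acid oxidase. Membership used symbols only, and no measured value.

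Each array compared hypothalamus RNA of tumor-injected BALB/c male mice with that of PBS-injected BALB/c male mice of the same age, 8 weeks at injection, killed at the same time. Tumor mice received 1e+06 CT-26.WT cells, a mouse colon carcinoma line that grows in BALB/c hosts, under the skin in 300 µl of PBS, and control mice received 300 µl of PBS alone. The tissue was taken 18, 72 or 192 h later, and no agent other than PBS was shared by the groups. After 6 arrays were left out, 19 arrays of 11 biological replicates remained, with 5, 2 and 4 replicates at the 3 times in order. The 4 polyA RNA replicates, 2 at 18 h and 2 at 192 h, carried 1 dye orientation each, on a printing of their own, whereas the 7 total RNA replicates were each hybridised in both dye orientations. RNA type and printing can therefore not be told apart. The labels give no number of mice per replicate. The p-values therefore refer only to variation among these samples, which may be technical. Of the 10080 spots of an array, 3056 to 9839 gave a ratio, and the median signal over local background was 0.763 to 2.23. PolyA replicate 2 at 18 h stood apart, with an SD of 0.92 over the log2 ratios of all genes against 0.21 to 0.56 in the other replicates.

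Cytokines are secreted proteins that carry signals between immune cells and between immune cells and tissues, and chemokines are the branch that directs cell movement. Interleukins, interferons and colony-stimulating factors act mostly through receptor chains that signal through Janus kinases, the interleukin-1 and TNF families act largely through NF-kappaB, and chemokines act through G-protein-coupled receptors. In the hypothalamus, cytokines made in the periphery or by local microglia and astrocytes are known to drive fever, loss of appetite and activation of the stress axis during inflammation and tumor growth.

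No member passed the test for a tumor over PBS difference at any time (limma, Benjamini-Hochberg adjusted p under 0.05 over all genes tested). Of the 126 members, 29, 23 and 12 could be tested at 18, 72 and 192 h, and 40 at one or more times. The share of all genes called was 0% at each time, of 3556, 1944 and 2127 genes tested in time order. At an unadjusted p under 0.05, 2 of 29 members were counted at 18 h, 2 of 23 members at 72 h and 0 of 12 members at 192 h, against 6.69%, 1.8% and 4.61% of all genes tested. The smallest adjusted p among all genes was 0.715, 0.991 and 0.408 in time order. In whole tissue, fewer cells of a type and less RNA per cell cannot be told apart.

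The first question was which members gave a signal in the hypothalamus. A gene was called detected in a condition where its background-subtracted signal was at least 1 times its local background on at least 0.5 of the 19 arrays. By this rule 40 members (31.7%) were detected in tumor hypothalamus and 33 (26.2%) in PBS hypothalamus, against 45.2% and 49.9% of all genes. Both conditions shared 26 members, 14 were detected in tumor channels alone, 7 in PBS channels alone, and 79 in neither. Tumor channels alone thus held 11.1% of members, against 5.79% of all genes, and PBS channels alone 5.56% of members, against 10.5% of all genes. The neuropeptide and transcription factor genes that mark the hypothalamus were detected more often: 9 of 11 in tumor and 9 of 11 in PBS channels, with Oxt, the oxytocin gene, on 19 tumor and 18 PBS channels. Of the markers of microglia and macrophages, 6 of 11 were detected in tumor and 6 of 11 in PBS channels, and of blood leukocyte and erythrocyte markers 4 of 12 and 3 of 12. Pituitary markers were detected too, 2 of 5 in tumor and 3 of 5 in PBS channels, with Pitx1 on 16 and 17 channels. Of the choroid plexus markers 1 of 2 was detected in each condition, and the single endothelial marker, Cdh5, in neither.

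**Figure D1:**
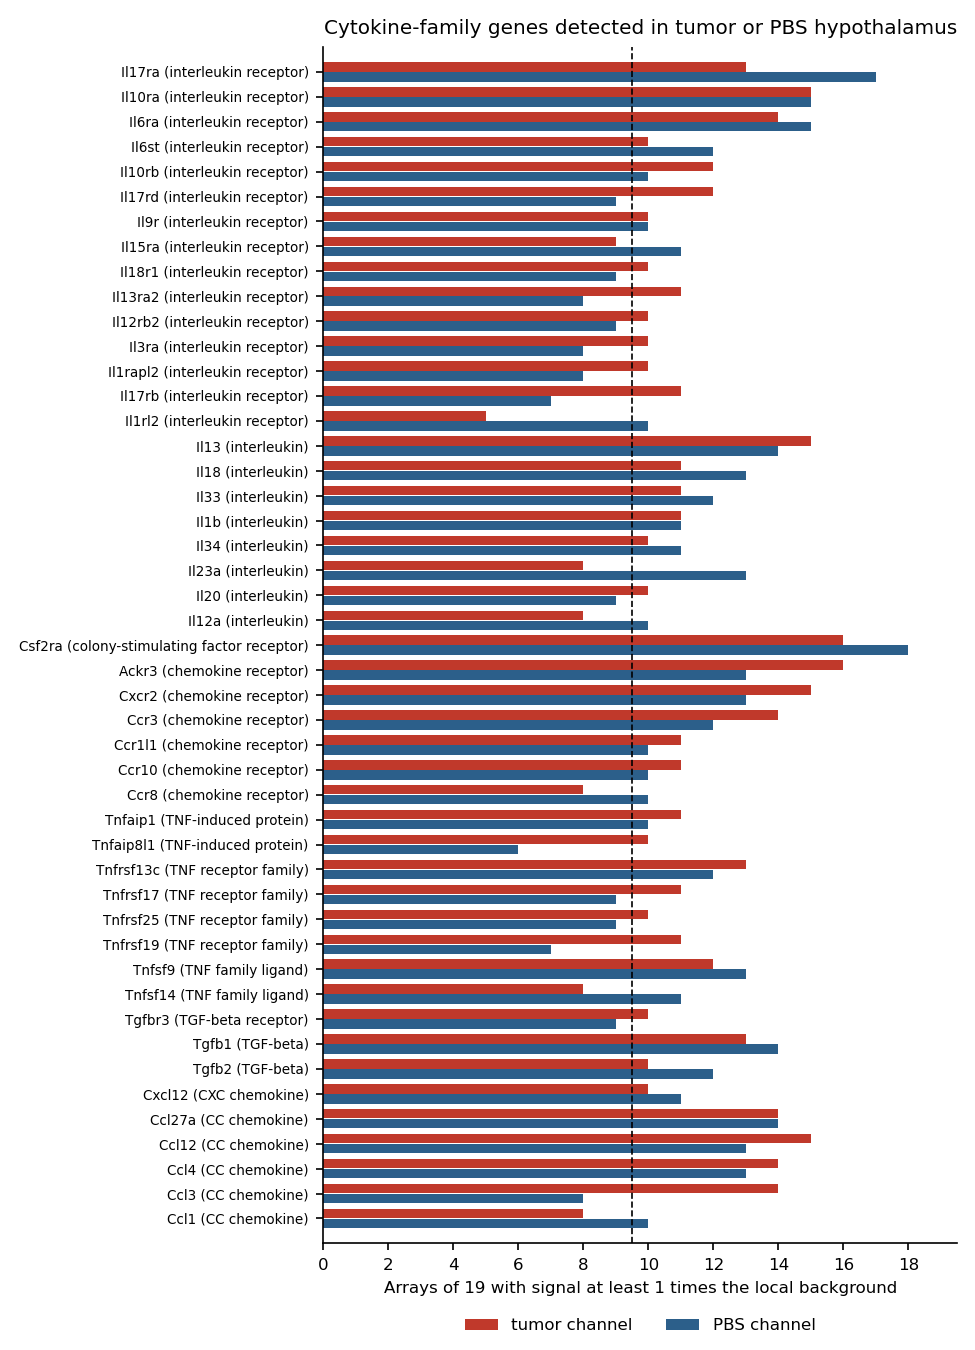
Number of the 19 arrays (horizontal axis) on which each of the 47 members detected in tumor or PBS hypothalamus had a signal of at least 1 times its local background, with the tumor channel above the PBS channel in each pair and the dashed line at the threshold. Csf2ra, with 16 tumor and 18 PBS channels, has the longest pair of bars.

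Among the receptors for colony-stimulating factors, Csf2ra, the ligand-binding chain for GM-CSF, was detected on 16 tumor and 18 PBS channels. Csf3r, the G-CSF receptor on neutrophils, had 9 and 8 channels, below the threshold, and the single ligand on the array, Csf3, had 8 and 7. The interleukin receptor chains, the largest class, gave the most detected members by count, 13 of 25 in tumor and 8 of 25 in PBS channels. The shares of all genes detected were 45.2% and 49.9%. Il17ra, the chain shared by receptors for the interleukin-17 family, had 13 tumor and 17 PBS channels, Il10ra, the ligand-binding chain for interleukin-10, 15 and 15, and Il6ra, the ligand-binding chain for interleukin-6, 14 and 15. Il6st, the signal-transducing chain that Il6ra shares with related receptors, had 10 tumor and 12 PBS channels. Il1r1, the signalling receptor for interleukin-1, had 4 tumor and 6 PBS channels and its accessory chain Il1rap 6 and 7.

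Of the interleukins, 6 of 22 were detected in tumor and 7 of 22 in PBS channels. Il18, an interleukin-1 family cytokine processed by inflammasomes, had 11 tumor and 13 PBS channels, Il33, a nuclear alarmin of astrocytes and oligodendrocytes in the brain, 11 and 12, Il34, a neuron-derived ligand of the CSF-1 receptor that maintains microglia, 10 and 11, and Il1b, the pyrogenic interleukin-1 beta, 11 and 11. Il13, a type-2 cytokine of lymphocytes, had 15 tumor and 14 PBS channels. The classical inflammatory cytokine Il6 had 7 tumor and 4 PBS channels and was not detected, and Il21, Il22 and Il7 had the fewest PBS channels, 3 each, with 6, 4 and 6 tumor channels. None of the 4 interferons (Ifna4, Ifnb1, Ifng, Ifnz) and none of the 3 interferon receptor chains (Ifnar1, Ifnar2, Ifngr2) was detected in tumor or PBS hypothalamus.

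Among the chemokines, 4 of 14 CC members were detected in tumor and 4 of 14 in PBS channels, and 1 of 10 CXC members, Cxcl12, in both. Cxcl12, a constitutive chemokine that guides neural and blood progenitors, had 10 tumor and 11 PBS channels. Its scavenging receptor Ackr3 had 16 and 13, and Cxcr2, the neutrophil receptor for Cxcl1, Cxcl2 and Cxcl5, had 15 and 13. The ligands Cxcl1, Cxcl2 and Cxcl5 had 5, 9 and 7 tumor channels and 8, 7 and 5 PBS channels. Ccl12, a monocyte chemoattractant of mice, had 15 tumor and 13 PBS channels, Ccl4, a macrophage inflammatory protein, 14 and 13, and Ccl27a, an epithelial chemokine, 14 and 14. Ccl2, the main monocyte chemoattractant, had 8 tumor and 9 PBS channels, and the interferon-induced Cxcl10 had 6 and 5. In the remaining families Tgfb1 had 13 tumor and 14 PBS channels and Tgfb2 10 and 12, both being ligands of the TGF-beta receptors, and Tnfrsf13c, the B cell receptor for BAFF, had 13 and 12.

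Detection differed between arrays and dyes. Between 1 and 117 of the 126 members reached the threshold in the tumor channel of an array (median 55), and between 12 and 121 in the PBS channel (median 43). In the polyA arrays alone 97 members were detected in tumor and 25 in PBS channels, and in the total RNA arrays alone 36 and 58, so the condition with more detected members changed with the set of arrays. The same exchange was seen for all genes, of which 81.6% were detected in tumor and 33.9% in PBS channels of the polyA arrays, against 42.3% and 64% in those of the total RNA arrays. The polyA arrays were not balanced for dye, and the Cy3 channel held more members than the Cy5 channel on each. With tumor in Cy3 the counts in Cy3 and Cy5 were 117 and 37, 117 and 31, and 86 and 12. With tumor in Cy5 they were 20 and 14, and 121 and 48. The part of the dye in this exchange was not tested. When a gene had to be detected on at least 0.5 of the arrays in each dye separately, a requirement added after the data were seen, 28 members (22.2%) remained in tumor and 24 (19%) in PBS hypothalamus, against 36% of all genes in each. The counts are therefore given as numbers of channels, and no member is called on in one condition and off in the other.

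**Figure D2:**
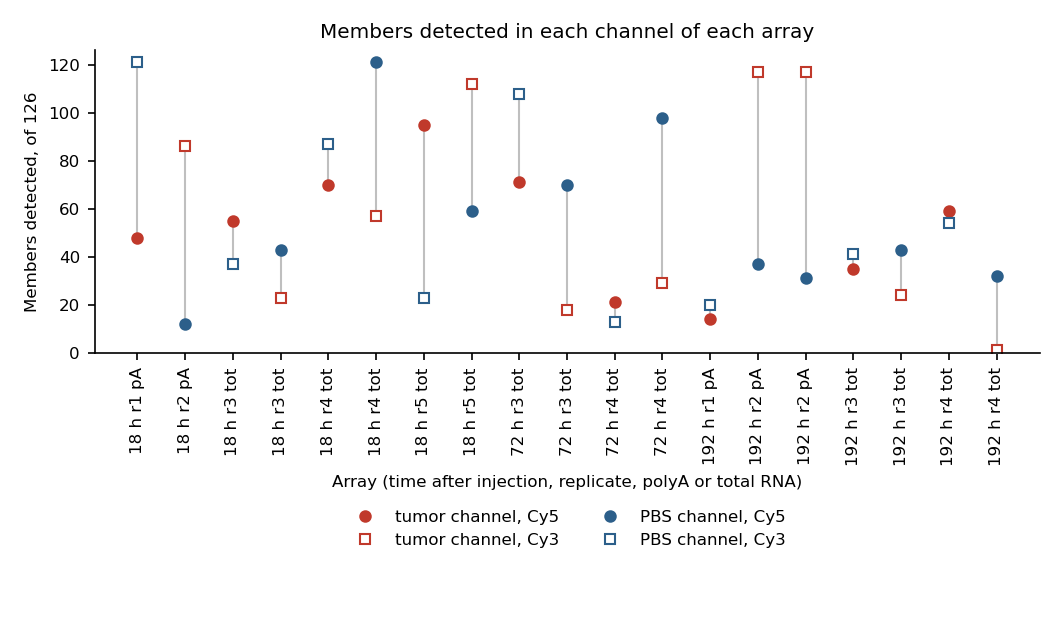
Number of members detected (of 126, vertical axis) in the tumor and the PBS channel of each of the 19 arrays, ordered by time and replicate, with filled circles for Cy5 and open squares for Cy3. The channels of an array lie up to 86 members apart; the tumor channel is higher on 8 arrays and the PBS channel on 11.

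Within single replicates, a member could be detected in the tumor channel of both dye orientations and in the PBS channel of neither, or the reverse. Over 882 combinations of a member and a total RNA replicate, 31 (3.51%) showed the tumor-only pattern, against 2.68% for all genes, and 32 (3.63%) the PBS-only pattern, against 3.95% for all genes. Of the 31 tumor-only cases 29 came from replicate 5 at 18 h, where 23% of members and 18.2% of all genes had the pattern. They included Il6, Cxcl10, Ccl3, Il1r1 and Tnfaip6, a hyaluronan-binding protein induced by TNF. In replicate 4 at 18 h no member was tumor-only and 11 (8.73%, against 8.27% of all genes) were PBS-only, among them Ccl4, Il15 and Tgfb3. At 72 h replicate 3 had 14 PBS-only members (11.1%, against 9.94% of all genes), among them Il1b, Cxcl1 and Il10. Replicate 4 at 72 h had 2, Ifngr2 and Il21r (1.59%, against 1.58%). At 192 h replicate 3 had 3 PBS-only members (2.38%, against 1.68% of all genes) and replicate 4 had 2 (1.59%, against 5.23%). The PBS-only shares of members in these replicates were thus near those of all genes, except for a lower share in replicate 4 at 192 h. No member showed the same pattern in more than 1 replicate of a time, and Il17rc, Il4 and Il9 were tumor-only in replicate 5 and PBS-only in replicate 4 at 18 h.

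Promoters of members that are textbook targets of NF-kappaB are shown because these inflammatory genes were not detected by the rule above. The 250 bases before the start of transcription, from RefSeq on build GRCm38.p6, were available for 98 members and were searched for a kappaB site, read 5′ to 3′ as GGGA, then any base, then TTTCC, on both strands. A match was found in 5 members (5.1%), namely Ccr3, Cxcl1, Cxcl2, Ifngr2 and Il6, and in 91 of 27025 promoters (0.337%). The sequences of Il6 and of the paired neutrophil chemokines Cxcl1 and Cxcl2 are given 5′ to 3′ with the match in capitals:
Il6, chr5:30012864-30013113, forward strand: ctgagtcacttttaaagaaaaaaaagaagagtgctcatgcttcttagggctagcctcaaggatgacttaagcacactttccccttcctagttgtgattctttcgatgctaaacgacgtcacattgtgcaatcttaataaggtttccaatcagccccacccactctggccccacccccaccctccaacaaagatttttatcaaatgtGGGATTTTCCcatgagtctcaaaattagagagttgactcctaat
Cxcl1, chr5:90890995-90891244, forward strand: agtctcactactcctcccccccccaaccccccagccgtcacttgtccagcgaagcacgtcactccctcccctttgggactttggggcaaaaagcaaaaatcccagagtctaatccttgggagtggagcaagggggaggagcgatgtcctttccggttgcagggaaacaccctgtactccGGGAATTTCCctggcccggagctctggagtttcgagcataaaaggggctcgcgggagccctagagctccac
Cxcl2, chr5:90903649-90903898, forward strand: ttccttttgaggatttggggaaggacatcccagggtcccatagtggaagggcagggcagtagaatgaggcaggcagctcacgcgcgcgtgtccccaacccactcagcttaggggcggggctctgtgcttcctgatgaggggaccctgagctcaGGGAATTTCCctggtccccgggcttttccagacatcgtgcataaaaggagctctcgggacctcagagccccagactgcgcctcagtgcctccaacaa
The match lay 44 bases before the start in Il6, 71 in Cxcl1 and 97 in Cxcl2, counted from its first base. Of these 3 genes only Cxcl2 could be tested, at 18 h, and its log2 tumor over PBS ratio was -0.01 ± 0.13 (SE, n = 3). Il6 and Cxcl1 gave a ratio in 1 replicate each, number 5 at 18 h, of 0.20 for Il6 and -0.79 for Cxcl1. The median ratio of observed to expected CpG was 0.288 in the promoters of the 25 members detected in PBS hypothalamus and 0.288 in those of the other 73 members, against 0.378 over all promoters.

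Ratios were next compared with the spread between replicates. A replicate value is the log2 ratio of the tumor to the PBS channel after within-array normalisation, averaged over the arrays of the replicate. A total RNA replicate needed both dye orientations, and the polyA replicates of a time, of opposite orientation, entered only as a pair. Each SE and 95% interval is that of the model, which pools a gene's spread over the times and draws it toward that of all genes. The dye term also takes up part of the gap between polyA replicates. An SE can therefore be smaller than the spread of the replicates listed beside it. The dyes were assigned to channels by label order, so the direction tumor over PBS is likely rather than stated. At 18 h 11 of 29 tested members lay above 0 with a median of -0.04, against 46.4% above 0 and a median of -0.01 for all genes. At 72 h 15 of 23 lay above 0 with a median of 0.01, against 52.7% and 0.01, and at 192 h 3 of 12 with a median of -0.13, against 42% and -0.03. The 95% interval of the ratio lay within 1 log2 unit on either side of 0 for 29 of 29 members at 18 h, 22 of 23 at 72 h (the exception being Csf3r) and 12 of 12 at 192 h. With both channels required to reach 1 times the local background, only 3, 2 and 2 members could be tested at 18, 72 and 192 h. Most of these ratios thus include spots with a channel below that level, which limits what the intervals show.

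**Figure D3:**
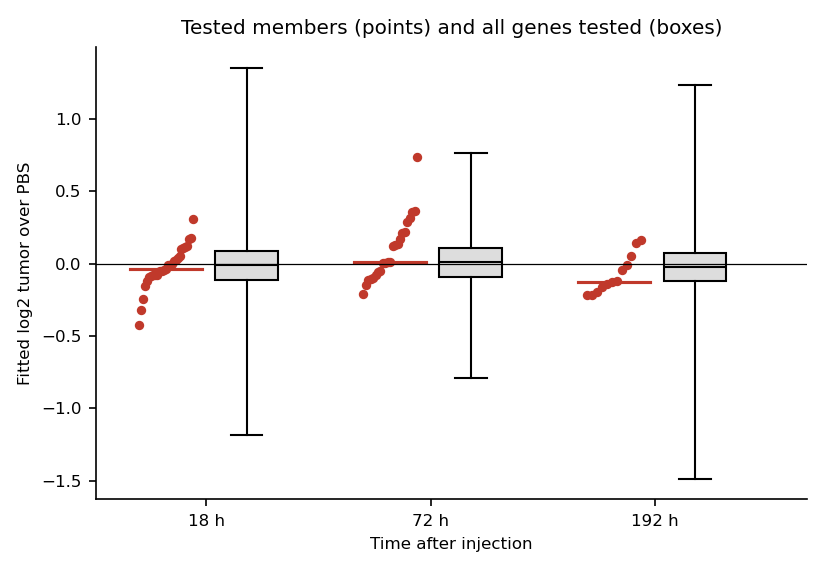
Fitted log2 tumor over PBS ratios (vertical axis) at each time for the tested members, as red points sorted by value with a red line at their median, and for all genes tested, as grey boxes spanning the quartiles with whiskers to the lowest and highest gene. The members run from -0.42 to 0.31 at 18 h, -0.21 to 0.73 at 72 h and -0.22 to 0.16 at 192 h, all within the whiskers.

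At 18 h, 2 members had an unadjusted p under 0.05. Cxcr2 had log2 ratios of -0.00, 0.81, 0.40 and 0.02 in replicates 1, 2, 3 and 5. Its mean was 0.31 ± 0.12 (SE, n = 4; limma adjusted p = 0.715, 95% interval 0.04 to 0.57), with 2 values above 0 and the other 2 at about 0. Il34 had 0.14, -0.46, -0.06, -0.55 and -1.19 in replicates 1 to 5. Its mean was -0.42 ± 0.17 (SE, n = 5; limma adjusted p = 0.715, interval -0.81 to -0.03), with 4 of 5 values below 0 and a spread of over 1 log2 unit between replicates. The value of replicate 5 averaged 0.37 on the array with tumor in Cy5 and -2.75 on the array with tumor in Cy3, and without that replicate the Il34 ratio was -0.23 (limma adjusted p = 0.518). Neither gene had all replicates on one side of 0. None of the 16 members with 4 or more values at 18 h did, against 6.46% of all such genes.

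Other receptors at 18 h were no closer to the threshold. Ackr3 had 0.04, -0.40, -0.57 and -0.06 in replicates 1, 2, 4 and 5, a mean of -0.25 ± 0.14 (SE, n = 4). Csf2ra, which gave a value in all 11 replicates of the series, had -0.26, -1.51, 0.50, -0.32 and -0.03 at 18 h, a mean of -0.32 ± 0.21 (SE, n = 5), so that polyA replicate 2 lay far below the rest. Il10ra had 0.29, -1.31, 0.54 and 0.27 in replicates 1, 2, 3 and 5, and its mean of -0.05 ± 0.20 combined 3 values above 0 with that same replicate. Il6st had 0.02, -0.57, 0.10 and 0.11 in replicates 1 to 4, a mean of -0.09 ± 0.12. Without polyA replicate 2 the fitted 18 h ratios were 0.04 for Csf2ra, 0.25 for Il10ra and 0.11 for Il6st, above 0 in place of below. In that fit polyA replicate 1 has no partner of opposite orientation, so the dye term also shifts these ratios. Its part in the signs was not tested. Il6ra had -0.52, 0.17 and -0.11 in replicates 1, 2 and 5. Il17ra ranged from -0.18 to 0.11 over 5 replicates, with a mean of -0.00 ± 0.10, and Csf3r from -0.35 to 0.85, with a mean of 0.11 ± 0.20. Tnfrsf13c had 0.08, 0.32 and 0.13 in replicates 3 to 5, on one side of 0, with a mean of 0.18 ± 0.13 (SE, n = 3; limma adjusted p = 0.807), and Tnfrsf21, the death receptor expressed by neurons, -0.46, 0.07, 0.42 and 0.18 in replicates 1, 2, 4 and 5.

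Of the ligands at 18 h, Il33 had -0.04, 0.41 and 0.15 in replicates 3 to 5, a mean of 0.17 ± 0.12 (SE, n = 3). Il18 had 0.04, 0.43 and -0.16 and Il1b 0.07, -0.17 and 0.15 in the same replicates, with means of 0.10 ± 0.15 and 0.02 ± 0.12. The 95% interval for Il1b ran from -0.25 to 0.29. Cxcl2 had 0.15, 0.03 and -0.21, and Cxcl12 had -0.15, -0.18, -0.08 and 0.21 in replicates 1, 2, 4 and 5, a mean of -0.05 ± 0.11. Tgfb2 had -0.41, 0.14 and 0.03 in replicates 3 to 5. Its receptors Tgfbr2 (-0.07, 0.14 and 0.01) and Tgfbr3, a co-receptor (-0.04, -0.19 and -0.00), averaged 0.02 ± 0.12 and -0.08 ± 0.12. For each of these ligands and TGF-beta receptors the 95% interval included 0. The other 10 tested members had means from -0.12 (Ccr1l1) to 0.12 (Tnfrsf17).

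**Figure D4:**
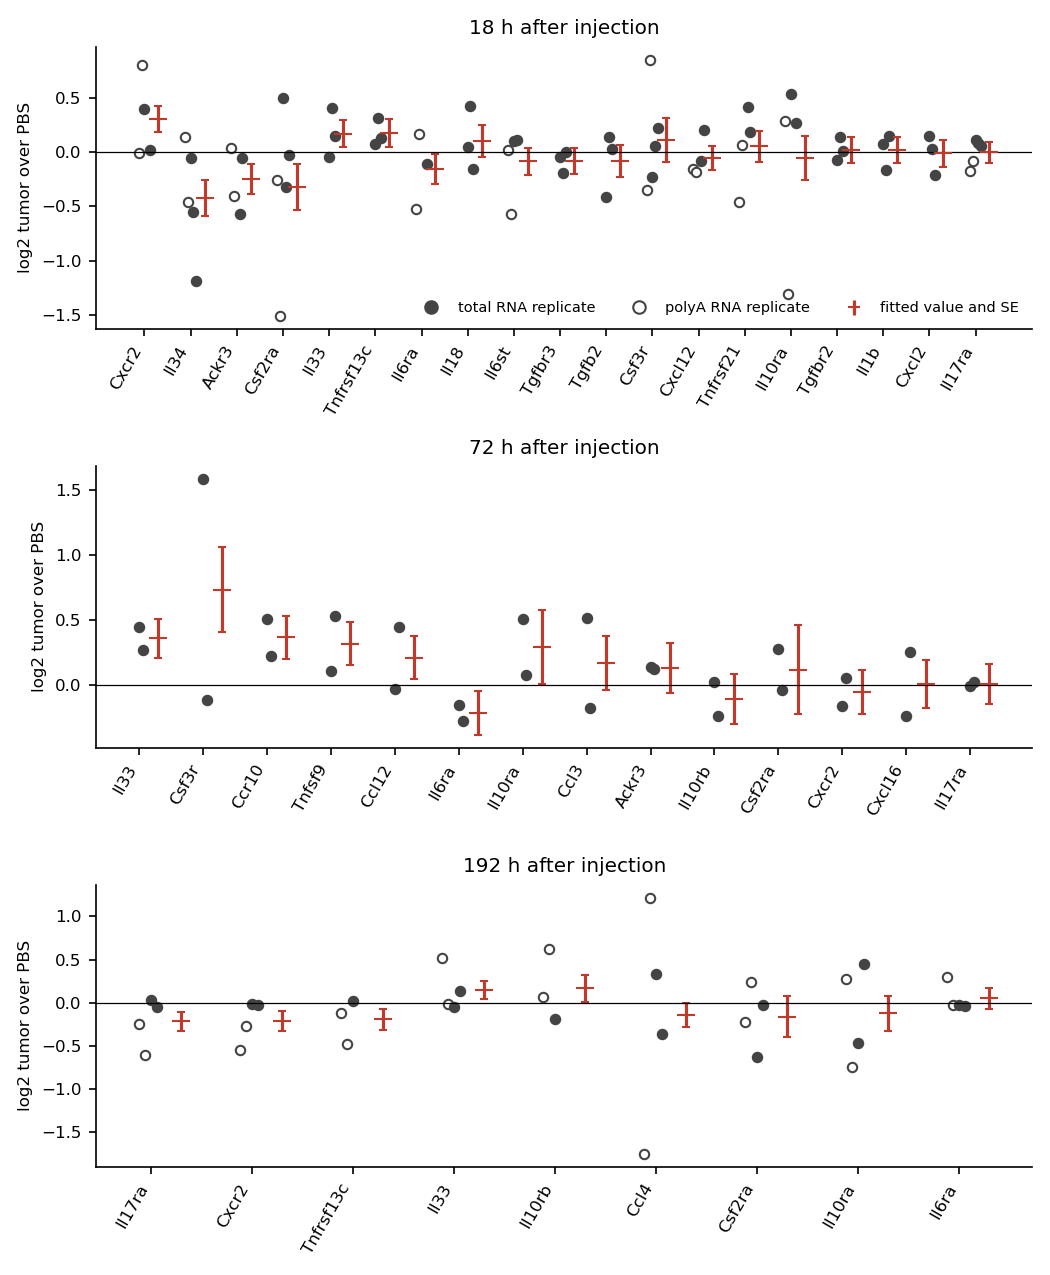
Log2 tumor over PBS ratio (vertical axis) of the named members at 18, 72 and 192 h, ordered by unadjusted p within a time, with filled points for total RNA and open points for polyA RNA replicates and red marks for the fitted value with its SE. Replicates of most genes lie on both sides of 0, and the points farthest out are those of Ccl4 (polyA) at 192 h, Csf3r (total RNA, 1.58) at 72 h, and Csf2ra and Il10ra (polyA) at 18 h.

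At 72 h, with 2 total RNA replicates, numbers 3 and 4, each mean rests on a pair of values, and 8 of 23 members had both on one side of 0, against 53.1% of all genes. Il33 had 0.45 and 0.27, a mean of 0.36 ± 0.15 (SE, n = 2; limma adjusted p = 0.991, 95% interval 0.02 to 0.70). Csf3r had 1.58 and -0.12, a mean of 0.73 ± 0.32 (SE, n = 2; limma adjusted p = 0.991), which rests on replicate 3 alone. Within that replicate the array with tumor in Cy5 gave -0.01 and the array with tumor in Cy3 gave 3.18. Ccr10, the receptor for Ccl27 and Ccl28, had 0.51 and 0.23, and Tnfsf9, a costimulatory ligand for T cells, 0.10 and 0.53, with means of 0.37 ± 0.17 and 0.32 ± 0.16. For both genes the dye orientations differed in sign in each replicate. With tumor in Cy5 and in Cy3, Ccr10 gave -0.07 and 1.08 in replicate 3 and -0.09 and 0.54 in replicate 4. Tnfsf9 gave 0.45 and -0.25 in replicate 3 and 1.20 and -0.13 in replicate 4. Ccl12 had -0.03 and 0.45, Ccl3, another macrophage inflammatory protein, 0.51 and -0.18, and Cxcl16, a membrane-bound chemokine, -0.24 and 0.25. Both values were above 0 for Il10ra (0.51 and 0.07) and Ackr3 (0.14 and 0.12) and below 0 for Il6ra (-0.15 and -0.28). For Il10rb, the signalling chain shared by the interleukin-10 family, Csf2ra, Cxcr2 and Il17ra the values straddled 0: 0.03 and -0.24 for Il10rb, 0.27 and -0.04 for Csf2ra, -0.16 and 0.05 for Cxcr2, and -0.01 and 0.02 for Il17ra. The other 9 tested members had means from -0.15 (Ccl1) to 0.22 (Tnfrsf17).

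At 192 h Cxcr2 was the 1 member of 7 with 4 values whose replicates all lay on one side of 0, against 6.79% of all such genes. Its values were -0.55 and -0.27 in polyA replicates 1 and 2 and -0.01 and -0.03 in total RNA replicates 3 and 4, a mean of -0.21 ± 0.12 (SE, n = 4; limma adjusted p = 0.925). Il17ra had -0.24 and -0.61 in the polyA replicates and 0.03 and -0.05 in the total RNA replicates, a mean of -0.22 ± 0.11 (SE, n = 4; limma adjusted p = 0.925). For both genes the polyA replicates lay below the total RNA ones, which lay between -0.05 and 0.03. Tnfrsf13c had -0.12, -0.48 and 0.02 in replicates 1 to 3, Il33 0.52, -0.02, -0.05 and 0.13 in replicates 1 to 4, and Il10rb 0.06, 0.62 and -0.19 in replicates 1 to 3. Ccl4 had -1.75 and 1.22 in the polyA replicates, which had opposite dye orientations, and 0.33 and -0.37 in the total RNA replicates. Its fitted mean of -0.14 ± 0.14 has a small SE because the dye term of the model takes up the gap between the polyA values. Csf2ra had -0.23, 0.24, -0.63 and -0.03, Il10ra 0.28, -0.75, -0.47 and 0.45, and Il6ra 0.29, -0.02, -0.03 and -0.04, none with a mean beyond 1 SE of 0.

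Over all 3 times, 7 members could be tested for a mean difference. Il33 had the smallest unadjusted p, with a mean of 0.22 ± 0.07 (SE, n = 9; limma adjusted p = 0.977, 95% interval 0.06 to 0.39) and 6 of 9 replicates above 0. The other 6 members (Il6ra, Il17ra, Tnfrsf25, Csf2ra, Il10ra and Cxcr2) had means from -0.12 to 0.04. The share of all genes called was 0% of 833 tested, and 2.28% had an unadjusted p under 0.05.

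Differences between times were tested in the same model. No member passed, and the share of all genes called was 0% for 192 h minus 18 h, 72 h minus 18 h and 192 h minus 72 h. Cxcr2 had the smallest p of the 10 members tested for 192 h minus 18 h: its ratio was -0.21 at 192 h and 0.31 at 18 h, a difference of -0.52 ± 0.17 (SE, n = 8; limma adjusted p = 0.712, 95% interval -0.89 to -0.15). At an unadjusted p under 0.05 it was 1 of 10 members, against 6.5% of all genes. Tnfrsf13c, with -0.20 at 192 h and 0.18 at 18 h, differed by -0.37 ± 0.18 (SE, n = 6; limma adjusted p = 0.731). For 72 h minus 18 h Cxcr2 was first of 13 members at -0.36 ± 0.21, and for 192 h minus 72 h Il6ra was first of 8 at 0.26 ± 0.21. At these 2 contrasts no member had an unadjusted p under 0.05, against 1.87% and 2.97% of all genes.

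The 7 total RNA replicates allowed the 2 dye orientations to be set side by side for the same RNA. Over 362 pairs of values, 156 (43.1%) had the same sign in both orientations, against 43% of 31111 pairs over all genes. The median gap between orientations was 0.38 log2 units for members, larger than the size of every fitted member ratio per time except Il34 at 18 h and Csf3r at 72 h. The log2 Cy5 over Cy3 ratios of the 2 arrays of a replicate correlated positively across genes in 6 of 7 replicates (Pearson r from 0.22 to 0.56) and at -0.05 in replicate 4 at 18 h; genes are not independent replicates, and no p is given. Of the 24 members with both orientations in 5 or more replicates, 8 had the same orientation higher in every replicate, against 9.93% of the 2760 genes with as many replicates. Ccr3, the eotaxin receptor, was the extreme case: its tumor over PBS ratio averaged -1.66 with tumor in Cy5 and 2.01 with tumor in Cy3 over 6 replicates. Ccl4 averaged -0.80 and 0.69 over 5 replicates, and Csf3r -0.24 and 0.85, or -0.30 and 0.27 without replicate 3 at 72 h. The rest of the 8 were Cxcr2 (0.20 and -0.11), Il1b (0.06 and -0.20), Ccr10 (-0.29 and 0.45), Il13ra2 (0.19 and -0.10) and Tnfsf9 (0.43 and -0.36). For all 8 the sign of the mean ratio differed between the orientations. Averaging the orientations left Ccr3 at 0.14 ± 0.22 at 72 h, the time at which it was tested. Il33, not among the 8, averaged 0.14 and 0.24 over 7 replicates, but gave -0.37 and 0.91 in replicate 4 at 72 h.

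**Figure D5:**
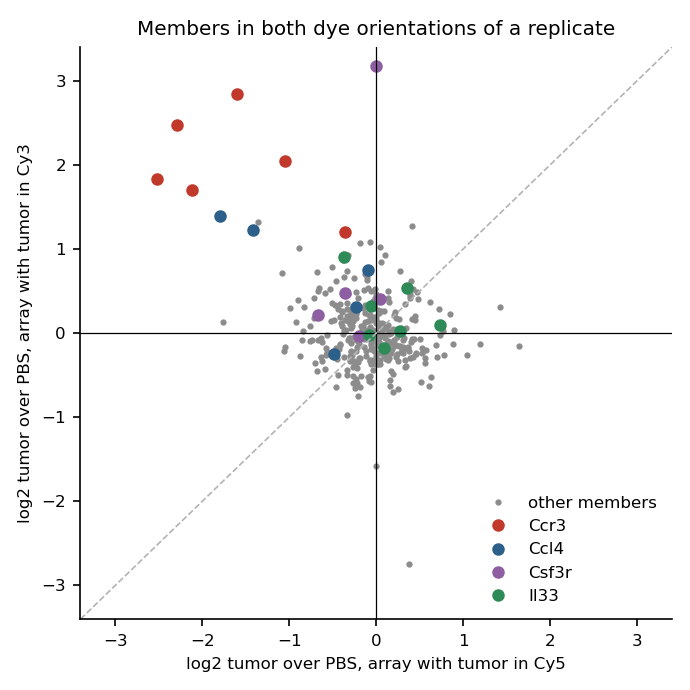
Log2 tumor over PBS of each member with both values in a total RNA replicate, from the array with tumor in Cy5 (horizontal axis) and the array with tumor in Cy3 (vertical axis), with the dashed line marking equal values. All 6 Ccr3 points lie in the upper left, far from that line, and 1 Csf3r point lies at -0.01 and 3.18.

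The 82 members that gave a value but were tested at no time had 180 replicate values between -0.82 and 0.87, with a median of -0.04 and 77 above 0. Among them, Ccl2 had -0.04 and 0.20 at 18 h, 0.37 at 72 h, and 0.06 and -0.03 at 192 h. Cxcl10 had -0.32 and 0.08 at 18 h, Cxcl9, also induced by interferon, 0.10 and 0.22 at 18 h, 0.33 in 1 replicate at 72 h and -0.15 in 1 at 192 h, and Ifnb1 0.87 and -0.11 at 18 h. Il10, an anti-inflammatory cytokine, had 0.05 in 1 replicate and Tnfaip3, an NF-kappaB inhibitor, -0.22 in 1. Tgfb1 had 0.20 and 0.12 at 18 h, -0.20 at 72 h and -0.10 at 192 h. Ccl11, Il11, Il31 and Il9 gave no replicate value at all. The genes for TNF itself, interleukin-1 alpha, the interleukin-1 receptor antagonist and the TNF receptors Tnfrsf1a and Tnfrsf1b were not analysed here.

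Where a gene had several probes, the probe brightest over the arrays was used. For Il6ra and Tgfbr2 the other probe gave values in few replicates, 0.32 against -0.11 for Il6ra in replicate 5 at 18 h, and -0.29 against 0.14 and 0.02 against 0.01 for Tgfbr2 in replicates 4 and 5.

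Of 115 genes that act downstream of or beside the members (NF-kappaB, Janus kinase, SMAD and related genes), 64 were on the array, and 17, 11 and 11 were tested at 18, 72 and 192 h. None passed the test at any time. Those above 0 numbered 8 of 17, 4 of 11 and 8 of 11, with medians of -0.01, -0.10 and 0.05. At 18 h Lta, lymphotoxin alpha, had 0.12, 1.95 and 0.35 in replicates 3 to 5, a mean of 0.81 ± 0.32 (SE, n = 3; limma adjusted p = 0.715), which rests on replicate 4. Xcl1, a lymphocyte chemokine, averaged -0.29 ± 0.14 and Ltbp3, which binds latent TGF-beta, -0.29 ± 0.18. At 72 h Pias2, Mif and Ltbp2 had the smallest p, with means of -0.17 ± 0.19, 0.15 ± 0.18 and 0.17 ± 0.21. At 192 h these were Pias4 and Pias2, modulators of STAT signalling, at 0.28 ± 0.16 and 0.23 ± 0.14, and Irak1, a kinase of the interleukin-1 receptor pathway, at 0.13 ± 0.14.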

How the data were processed

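Hypothalamus RNA was hybridised tumor against PBS on 2-colour oligonucleotide arrays printed in the submitters' laboratory. Per the file headers, each array has 3 scan files with background-subtracted intensities and local backgrounds of both channels, deposited without further normalisation. No source names the quantification tool. The authors' deposited value tables hold per-spot log ratios centred per array, read here as natural log values because no label states their base. The data did not settle the base (spread 0.541 times that of the log2 ratios on bright spots, median over arrays). The tables were used as an alternative, of which only signs, shares above 0 and calls are read. Spots were named through the platform annotation in print-block order, the order in which the authors' values follow the scans (r from 0.586 to 0.856). Channels were assigned to dyes by label order, so the direction, tumor over PBS, is likely rather than stated; the authors' values have the same direction on all arrays used.

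Scans were loess-normalised (span 0.3) with both channels above 0 and averaged per array, then per replicate. A total RNA replicate needed both dye orientations, and polyA replicates of a time entered only as a pair. limma 3.58.1 in R 4.3.3 fitted all genes of all replicates with a dye term; genes needed at least 3, 2 and 3 replicates at 18, 72 and 192 h. P-values are two-sided, adjusted by Benjamini-Hochberg over all genes tested in a contrast. The fit was tested on simulated data. Arrays 145, 146, 152, 153, 190 and 271 were left out. The number of arrays limits the precision. The members and gene lists were chosen with earlier results of these data known. Named members are, per time, the 6 with the smallest unadjusted p, those with 1 sign in at least 4 replicates, and a list of 68 well-studied genes where tested, of which 45 are members and 21 were tested. Of the pathway list, the 3 with the smallest p per time are named. All 126 members matched the RefSeq table by gene number and symbol. Alternatives covered the normalisation, background, filter, probe rule, dye term, RNA type, printing, replicate block and each replicate left out.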

Additional observations from a re-analysis of the deposited data

Results flagged for a closer look

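Of 17 named member values with 4 or 5 replicates, 3 had a replicate far from the others by Dixon's criterion at the 95% level, which chance meets in about 1 group of 20. Il10ra in polyA replicate 2 at 18 h had a log2 tumor over PBS ratio of -1.31, against 0.27 to 0.54 in the other replicates. Il6st in the same replicate had -0.57, against 0.02 to 0.11 in the others. Il6ra in polyA replicate 1 at 192 h had 0.29, against -0.04 to -0.02 in the others. All 3 came from polyA replicates, which carry 1 dye orientation each; the part of dye or RNA type in these values was not tested.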

How the results depend on the processing

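No member and no pathway gene was called at any time, for the mean of the times or for a difference between times under any alternative that gave a value. Counts of all genes called, 0 as reported, became 1 at 192 h with total RNA only, 8 at 192 h on the printing with the most arrays, and 2 at 18 h with the printing as a block; they ranged from 0 to 0 at 18 h, 0 to 1 at 72 h (1 without 72 h replicate 4) and 0 to 3 at 192 h (3 without 18 h replicate 2) when each replicate was left out. The median log2 ratio of the members moved by more than the SD of the replicate medians in these settings. At 18 h it was 0.0066 with print-tip loess, 0.072 with the authors' values and -0.14 with polyA RNA only, against -0.04 as reported. At 72 h it was 0.034 with print-tip loess, 0.20 over the 2 members left by the strict filter (both channels at least 1 times background), 0.062 with the printing as a block and 0.062 with the replicate block. At 192 h it was -0.19 with median centring, -0.20 with normexp, -0.082 with lone polyA values kept, -0.011 with total RNA only and -0.053 with polyA RNA only. It was -0.086 with the printing as a block, -0.035 on the main printing alone (replicate 4 only) and -0.054 with the replicate block. Leaving out replicates gave medians from -0.050 to 0.0023 at 18 h (the highest without polyA replicate 2), -0.040 (without replicate 4) to 0.012 at 72 h, and -0.16 (without replicate 4) to -0.013 (without replicate 3) at 192 h. The share of members above 0 was 68.4% at 18 h with the authors' values, 100% at 72 h and 50% at 192 h with the strict filter, and 0% with median centring and 40% with polyA RNA only at 192 h; leaving out replicates gave 23.5% (without replicate 4) to 52.3% at 18 h, 42.4% to 65.2% at 72 h and 22.2% to 42.9% at 192 h (the highest without replicate 1). The causes of these moves were not tested, beyond the smaller sets of genes or samples that the filters leave. Members detected in tumor hypothalamus numbered 124 at any signal above 0, 2 at 2 times background and 97 on polyA arrays, and in PBS hypothalamus 125, 3 and, on total RNA arrays, 58.

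Of 890 values of named members under an alternative, 68 changed sign and 0 were called; 13 of 42 named values changed sign under none. Il34 at 18 h lay above 0 with the authors' values, and Csf3r at 72 h was -0.12 without replicate 3. At 192 h Cxcr2 was -0.02 and Il17ra -0.01 with total RNA only, and -0.41 and -0.43 with polyA RNA only. Same-numbered replicates deviated together across genes for numbers 1 and 2 (r = 0.61 and 0.43 between 18 and 192 h, which share RNA type, printing and dye orientation). For 3 and 4, averaged over both dye orientations, r ran from -0.06 to 0.12. Whether same-numbered replicates share more than a number was not tested. The replicate block left the count of calls at 0. With 72 h replicate 3 or 4 left out, the lone sample is assumed to vary like the others. The same holds for the lone 192 h replicate on the printing with the most arrays. The partner of a polyA replicate left out was kept. The strict filter left 3, 2 and 2 members tested at 18, 72 and 192 h.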
